A study of Mus musculus with 12 samples.

Results

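In the hippocampus of male mice, 10 genes of the zinc finger family carried an N6-methyladenosine (m6A) peak with fewer immunoprecipitated reads at 20 months than at 3 months of age. They are Zfp329, Zfp60, Zfp605, Zfp644, Zfp804a, Zfp84, Zfp846, Zfp933, Zfp952 and Zfp954, each with 1 peak, out of 529 unique peaks under 532 gene names that the authors listed as differential with age. The genes were chosen because their peaks had fewer reads at 20 months, so the direction and size of that difference are given below as a description and are not tested. The listed peaks include 5 further peaks in genes whose names start with Zfp or Zbtb (Zfp622, Zfp664, Zfp787, Zfp36l2 and Zbtb16), and these had more reads at 20 months. No listed gene name started with Zscan or Zkscan.

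The mice were inbred C57BL/6 males, young at 3 months and aged at 20 months, and the labels name no treatment. Each library came from the hippocampal tissue of 1 mouse, after the mice had been picked on a qPCR pre-check, and 3 immunoprecipitate (IP) libraries per age were compared. The hippocampal label was not checked against marker genes, because the table analysed here holds only peaks already listed as differing with age. In methylated RNA immunoprecipitation sequencing (MeRIP-Seq), fragmented poly(A) RNA is pulled down with an antibody against m6A and sequenced, so reads pile up around methylated adenosines. The input libraries were not analysed here, so methylation, transcript level and library yield cannot be told apart in these reads, and in whole tissue neither can fewer cells of a type and less RNA per cell.

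Zinc finger proteins of the C2H2 type fold a short loop around a zinc ion held by a pair of cysteines and a pair of histidines, and tandem arrays of such fingers read DNA sequence. Many mammalian C2H2 proteins begin with a Krüppel-associated box (KRAB), which recruits the corepressor Trim28 and, through it, histone methyltransferases, and many of these repress transposable elements. Their genes often lie in clusters, and the whole finger array is usually encoded by 1 long last exon. m6A is deposited mainly on adenosines in the sequence DRACH (D is A, G or T, R is A or G, H is A, C or T), often near stop codons and in long internal exons, and affects the stability and translation of the RNA.

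The 10 peaks were centred in the coding sequence. At Zfp84 and Zfp954, 170 and 172 of the 200 bases of the peak were coding, and the other members' peaks were wholly coding. In the GENCODE M21 gene models, the peak centre was coding in 10 of 10 genes and in the last exon in 9 of them, the exception being Zfp644, with its centre in exon 3 of 6. The exons that held the centres were 1511 to 12249 bases long, with a median of 3677.5 bases, against 2295 bases for the 87 other lower peaks and 546 bases for the 307 other higher peaks that had a gene model. Last exons held 57.5% of those other lower peaks and 21.2% of those other higher peaks. The centres lay between 72 bases (Zfp954) and 2027 bases (Zfp644) before the end of the coding sequence. The authors' annotation placed 7 of the peaks in exons alone, and gave a 3'UTR annotation as well for Zfp846, Zfp60 and Zfp954. Zfp954 also had a stop codon annotation. In the gene models used here, the centres of Zfp846 and Zfp60 lay 540 and 1708 bases before the end of the coding sequence.

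Sequences of 3 member peaks and of 1 zinc finger peak that was higher at 20 months are shown as examples. They do not stand for every peak of their group in base composition or motifs. They are read 5′ to 3′ on the gene's strand from GRCm38, with every DRACH match in capitals. Zfp605 (chr5:110128792-110128991, + strand) is a stretch of finger codons, Zfp933 (chr4:147826421-147826620, - strand) is finger codons of which 61.5% are soft-masked as repeat, Zfp804a (chr2:82257487-82257686, + strand) lies outside any finger, and Zfp787 (chr7:6132435-6132648, - strand) is the peak with more reads at 20 months.
Zfp605: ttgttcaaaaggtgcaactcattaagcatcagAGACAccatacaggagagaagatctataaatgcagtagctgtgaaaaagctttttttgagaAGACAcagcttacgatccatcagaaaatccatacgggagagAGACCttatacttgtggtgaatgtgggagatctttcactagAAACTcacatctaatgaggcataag
Zfp933: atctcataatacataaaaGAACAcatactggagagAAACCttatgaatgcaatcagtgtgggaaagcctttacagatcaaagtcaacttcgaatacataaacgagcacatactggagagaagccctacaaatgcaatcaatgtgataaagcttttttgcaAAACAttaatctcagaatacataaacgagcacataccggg
Zfp804a: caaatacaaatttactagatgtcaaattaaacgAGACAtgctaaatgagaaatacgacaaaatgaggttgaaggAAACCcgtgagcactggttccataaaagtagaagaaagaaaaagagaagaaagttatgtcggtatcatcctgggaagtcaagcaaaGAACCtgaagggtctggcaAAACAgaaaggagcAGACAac
Zfp787: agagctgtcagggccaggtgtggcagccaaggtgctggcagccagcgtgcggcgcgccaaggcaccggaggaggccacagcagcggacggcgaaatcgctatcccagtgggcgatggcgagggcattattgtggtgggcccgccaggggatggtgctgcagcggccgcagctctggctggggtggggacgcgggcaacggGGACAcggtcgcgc

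The Zfp605 peak has a GC content of 39.5%, the Zfp933 peak 36.5% and the Zfp804a peak 38.5%, and the Zfp787 peak has 71.0%. Capitals occur at 4, 3 and 5 places in the first 3 sequences and at 1 place in the last. Among the 5 other zinc finger peaks, the number of DRACH matches ran from 1 to 17, with 17 at Zbtb16. In Zfp933, the match AAACC falls in the codons of the linker that joins neighbouring fingers, found by the letters GAGAAACC on the gene's strand. That string occurred in 1 of the 10 member peaks, in 2 of the 102 other lower peaks and in 0 of the 412 other higher peaks, or 0.567% of all listed peaks. The search took this spelling alone. In Zfp605, the match AGACC falls in linker codons spelled otherwise, which that count leaves out.

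By a pattern for the C2H2 finger (C, any 2 residues, C, any 12, H, any 3 to 5, H), the encoded proteins held between 1 finger (Zfp804a) and 19 fingers (Zfp60). A pattern for the core of the KRAB A-box was found near the start of 7 proteins, those of Zfp605, Zfp846, Zfp933, Zfp952, Zfp954, Zfp84 and Zfp60, and not in Zfp329, Zfp644 or Zfp804a. The codons under the peak covered at least 50% of each of 2 or 3 fingers in 6 genes. In Zfp605, residues 592 to 658 lay under the peak, near the end of an array of 12 fingers, and in Zfp329 residues 438 to 505 covered 3 of its 12 fingers, at the end of the array. In Zfp846, Zfp933, Zfp952 and Zfp954 the peak covered 2 fingers. The peaks of Zfp84 (residues 83 to 139) and Zfp60 (102 to 168) lay between the KRAB pattern and the first finger. In Zfp644 and Zfp804a the peak covered no finger. The map of the proteins shows these places.

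**Figure D1:**
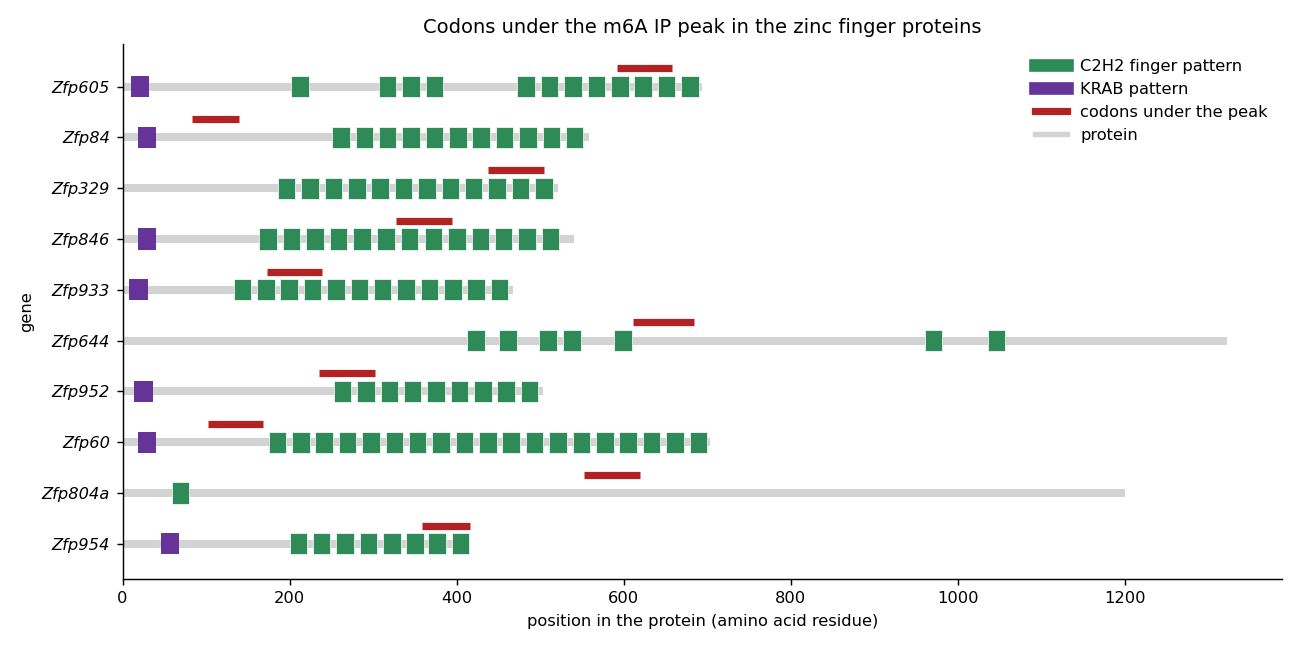
Residue positions in the 10 zinc finger proteins (x axis, amino acids), with C2H2 fingers in green, the KRAB pattern in purple and the codons under the m6A IP peak as a red line above each protein. The red line lies over fingers in 6 genes, between KRAB pattern and fingers in Zfp84 and Zfp60, and outside the fingers in Zfp644 and Zfp804a.

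DRACH was found in 10 of 10 member peaks, with 3 to 7 matches each and 47 in all, counting overlapping matches on the gene's strand. The median was 4.5 matches per peak, against 6.0 in the other lower peaks and 2.0 in the other higher peaks, and 84.7% of all listed peaks held at least 1. The 5 other zinc finger peaks had a median of 1.0, but Zbtb16 held 17, more than any member. The 4 letters GGAC, the core of the preferred m6A motif, were in 4 member peaks (Zfp644 with 2, and Zfp954, Zfp60 and Zfp84 with 1 each), in 71 of the 102 other lower peaks (69.6%) and in 68.6% of all listed peaks. GGAC was also in 4 of the 5 other zinc finger peaks, with 3 in Zfp787. Of the 47 DRACH matches in the member peaks 3 began with GGAC, and AGACA (8 matches) and AAACA (7 matches) were the most frequent spellings. A match is a description of the letters and does not mark a methylated base.

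The DRACH match nearest to the centre of each member peak is shown in capitals, with 8 bases on each side, because the reads of a MeRIP-Seq peak gather around the methylated base. The A of the match lay 2 to 75 bases from the centre, with a median of 22.5, and within 25 bases in 6 genes.
Zfp605: ttttgagaAGACAcagcttac
Zfp846: tataagaaAAACAcacagtgg
Zfp933: tttttgcaAAACAttaatctc
Zfp952: tcccttcaGAACCatgaaaga
Zfp954: agggagtgTGACAaggtgtac
Zfp84: aatgcaagGGACTccttgaga
Zfp60: attaagtaAAACTtcggacgt
Zfp329: agtccttcAGACAgaacactc
Zfp644: tttccaaaGAACTctgcttta
Zfp804a: gttgaaggAAACCcgtgagca

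AGACA was the nearest match in Zfp605 and Zfp329, and AAACA in Zfp846 and Zfp933. Only Zfp84 had a GGAC match as the nearest, 75 bases after the centre. In Zfp952 the A of GAACC lay 2 bases before the centre.

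Levels are given as reads per 1000000 reads of effective library size (CPM), and the raw reads of the member peaks ranged from 45 (Zfp605, aged library 3) to 1290 (Zfp644, young library 3). Counting error alone gives a 95% Poisson interval of 32.8 to 60.2 reads for the former and of 1220.6 to 1362.4 for the latter. Log2 fold changes are aged over young, from edgeR's quasi-likelihood fit to all 529 peaks. Each standard error (SE) given was computed as the absolute log2 fold change divided by the square root of the test's F statistic.

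Among the KRAB genes, Zfp605 encodes 12 fingers. Young libraries 1 to 3 had 12, 7.96 and 17.8 CPM at its peak, and aged libraries 1 to 3 had 6.54, 8.61 and 5.15 CPM. Young library 2 lay below aged library 2, so the ages overlapped. The log2 fold change was -0.91 (SE 0.40), and -0.57 without young library 3. The Zfp846 peak had 16.4, 13.3 and 21.4 CPM in young and 10.9, 7.79 and 11.4 CPM in aged libraries. Every aged library was below every young one there, with a log2 fold change of -0.76 (SE 0.35).

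The Zfp933 peak, within an array of 12 fingers, had 26.6, 16.2 and 29.0 CPM at 3 months and 12.6, 11.9 and 19.6 CPM at 20 months. Aged library 3 was above young library 2, and the log2 fold change was -0.71 (SE 0.35). At Zfp952 the values were 20.7, 14.5 and 21.7 CPM in young and 11.2, 12.2 and 12.5 CPM in aged libraries. Its aged libraries lay close together (11.9 ± 0.685 CPM, SD, n = 3) and did not overlap the young ones, with a log2 fold change of -0.67 (SE 0.33). Zfp954 had 16.1, 11.5 and 15.0 CPM in young and 9.57, 11.9 and 6.87 CPM in aged libraries. Aged library 2 reached above young library 2 there, and its log2 fold change was -0.60 (SE 0.35).

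Zfp84 and Zfp60 are the KRAB genes whose peak precedes the fingers. The Zfp84 peak had 15.8, 9.36 and 17.2 CPM in young and 8.86, 7.63 and 7.10 CPM in aged libraries, and the ages did not overlap (log2 fold change -0.84, SE 0.36). Zfp60, which is known from mouse muscle cell differentiation, had 27.1, 15.7 and 29.5 CPM in young and 14.3, 14.8 and 16.7 CPM in aged libraries. Aged library 3 was above young library 2, and the log2 fold change was -0.66 (SE 0.33).

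The 3 genes without the KRAB pattern included the member with most reads. Zfp644, whose human counterpart ZNF644 binds the G9a and GLP histone methyltransferases, had 81.9, 42.3 and 80.2 CPM in young and 44.8, 35.4 and 47.4 CPM in aged libraries. Young library 2 lay among the aged libraries, and the log2 fold change was -0.68 (SE 0.35). Zfp329 had 17.8, 12.2 and 19.1 CPM in young and 7.66, 8.28 and 12.8 CPM in aged libraries, where aged library 3 was above young library 2 (log2 fold change -0.77, SE 0.36). Zfp804a encodes the mouse counterpart of human ZNF804A, a gene studied for its association with schizophrenia. Its peak had 24.4, 22.7 and 22.3 CPM in young and 15.5, 15.6 and 13.6 CPM in aged libraries. These groups were the furthest apart relative to their spread, at 23.1 ± 1.13 against 14.9 ± 1.11 CPM (SD, n = 3), with a log2 fold change of -0.63 (SE 0.30).

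**Figure D2:**
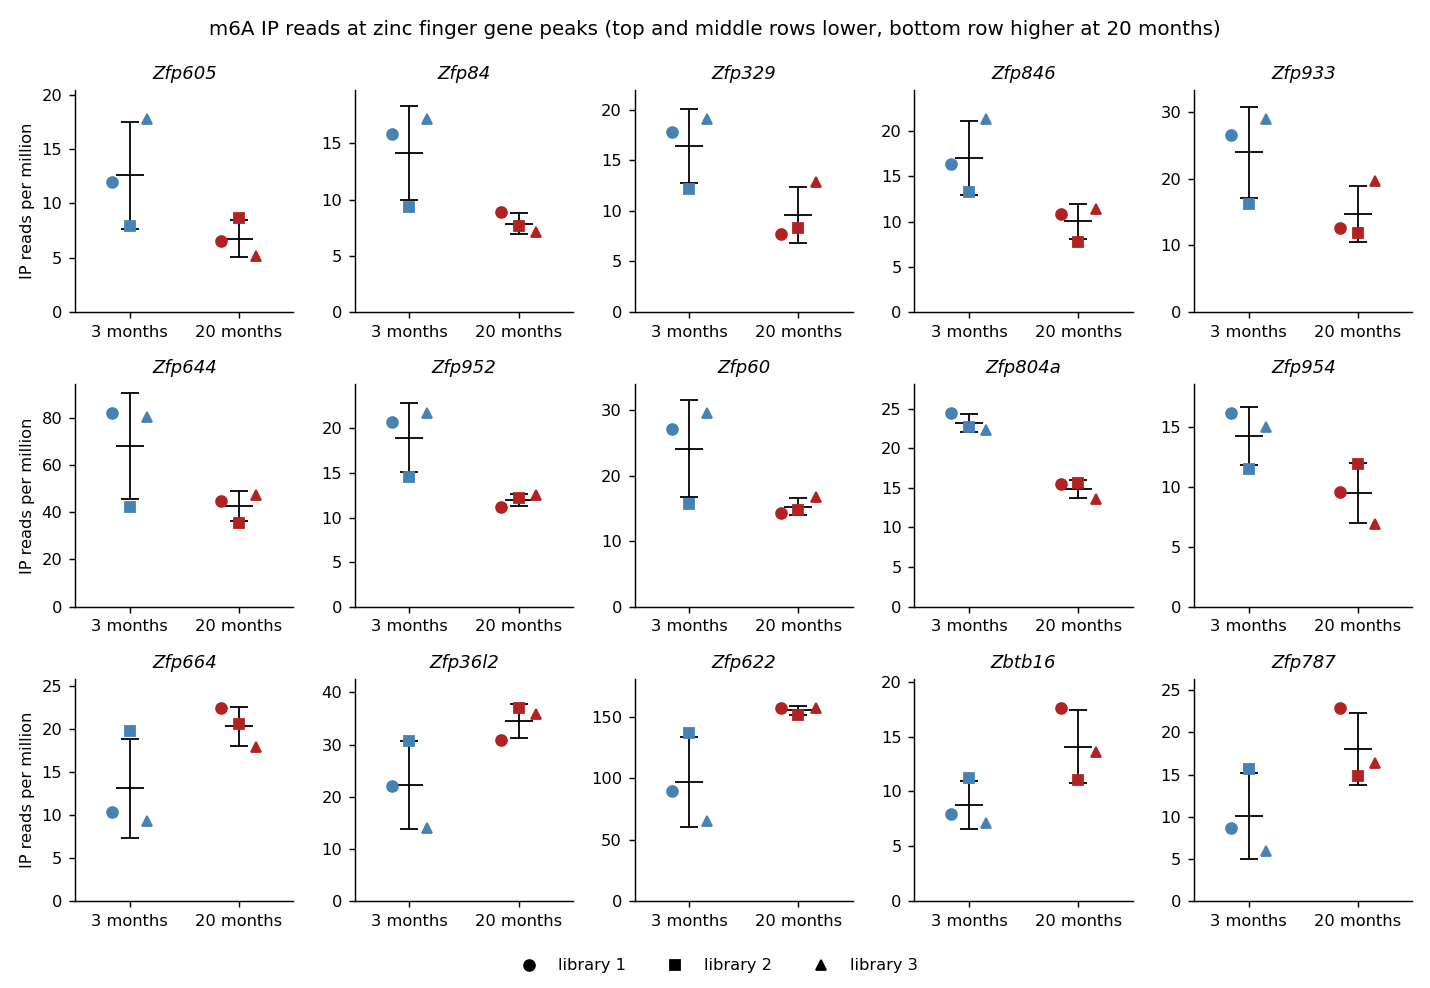
IP reads in CPM (y axis, from 0) in each library at 3 and 20 months (x axis) for the 10 member peaks (top and middle rows) and the 5 other zinc finger peaks (bottom row). Symbols mark the library number, and black bars the mean ± SD (n = 3). Young library 2 (square) is the lowest young library at 9 of the 10 member peaks and the highest at 5 of the 5 others.

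The 10 fold changes thus lay within a narrow band, from 1.52-fold to 1.88-fold lower, with a median log2 fold change of -0.69 beside 0.59 over all 529 peaks and -0.70 over the 102 other lower peaks. The authors had listed peaks, members included, that passed limits on both fold change and false discovery rate in their own fit. The member nearest to 0 here was Zfp954 at -0.60, while the nearest zinc finger peak outside the set was Zfp664 at 0.63. The aged libraries were all below the young ones at 4 member peaks (Zfp84, Zfp846, Zfp952 and Zfp804a), where 14.9% of all listed peaks were, and at 75 of the 102 other lower peaks. In edgeR's quasi-likelihood test, adjusted by Benjamini-Hochberg over all 529 peaks and called at 0.05, 0 member peaks were called lower (0% of all listed peaks, with 6 peaks called higher). Before adjustment, p was under 0.05 at 48 lower peaks, 4 of them members, and at 8 to 103 lower peaks, 0 to 10 of them members, with 1 library left out. DESeq2's Wald test and edgeR's likelihood ratio test each called 1 lower peak after adjustment, which was not a member. Because the members were chosen on this contrast, nothing is read from these counts.

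Young library 2 stood apart at these genes. It was the lowest young library at 9 of the 10 member peaks (Zfp804a was the exception), at 79 of the 102 other lower peaks and at 14 of the 412 other higher peaks, where it was the highest young library at 383. Against the mean of young libraries 1 and 3, young library 2 was lower by a median log2 difference of -0.69 at the member peaks, from -0.94 at Zfp644 to -0.04 at Zfp804a, with -0.46 at the other lower peaks. The mean of the aged libraries lay under young library 2 at 9 member peaks, was level with it at Zfp644 (0.01) and nearly so at Zfp60 (-0.04). Its median difference from young library 2 was -0.27 over the 10 member peaks and -0.43 over the other lower peaks. Against young libraries 1 and 3 alone, every aged library was lower at 10 of 10 member peaks, and at 106 of all 529 listed peaks, members included. The median difference was -0.92 at the member peaks and -0.81 at the other lower peaks.

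**Figure D3:**
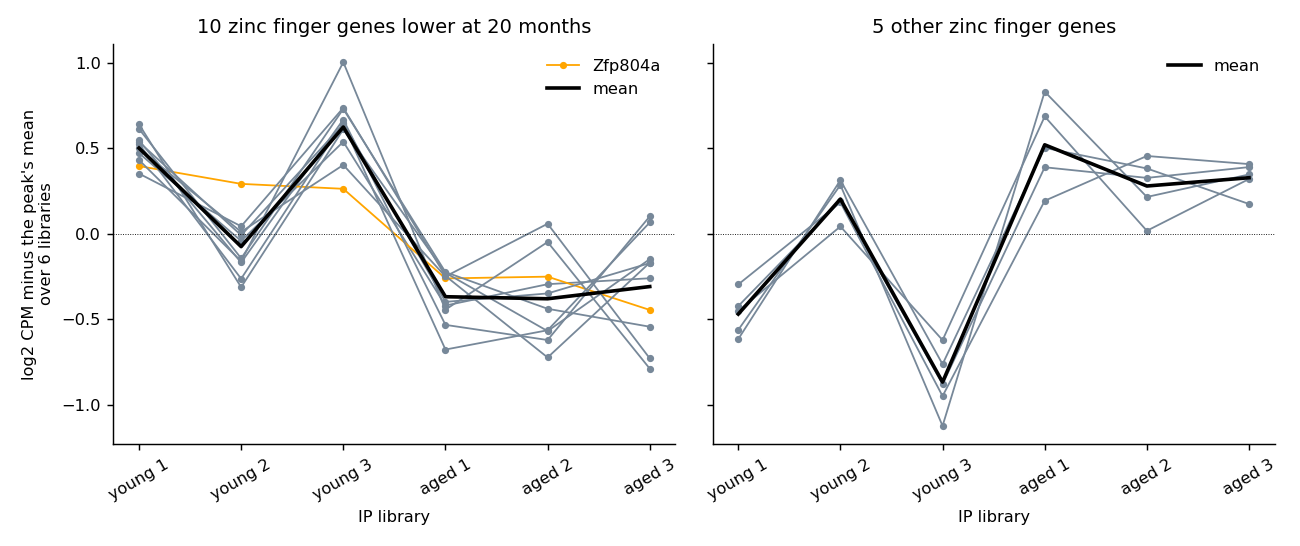
Log2 CPM of each peak minus its own mean over the 6 IP libraries (y axis), by library (x axis), for the 10 member peaks and the 5 other zinc finger peaks, with the mean in black. The member mean stands at 0.50, -0.07 and 0.63 in young libraries 1 to 3 and at -0.37, -0.38 and -0.31 in the aged ones, and Zfp804a (orange) is the member with 3 similar young values.

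Without young library 2, the quasi-likelihood fit called 10 of the 10 member peaks lower, as it did 19.5% of all listed peaks (103 lower, with 410 higher). No other library had such an effect, with 0 members called when any other was left out. The 103 lower calls stand beside 112 listed peaks below 0, members included, with every library kept. These calls thus do not set the members apart from the other lower peaks. The young coefficient of variation at the member peaks ranged from 4.90% (Zfp804a) to 39.4% (Zfp605), with a median of 26.3% beside 17.2% in the aged libraries. The young and aged medians were 38.6% and 12.9% over all listed peaks, and 22.1% and 15.2% at the other lower peaks. What sets young library 2 apart was not tested.

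Scaling also moved the size of the difference. With TMM the log2 fold changes of the members ran from -1.68 to -1.30 and 7 of the 10 were called lower, as were 16.4% of all listed peaks (87 lower, with 6 higher). With DESeq2 size factors only Zfp804a was called among the members, and 8.51% of all listed peaks were (45 lower). With 7 members among the 87 lower calls, most lower calls under TMM were at other genes. For comparison, 112 listed peaks, members included, were below 0 in the main fit. Both scalings set the median log2 fold change of all listed peaks near 0 (0.03 and 0.02, from 0.59), which assumes that rises and falls balance within a list of peaks chosen for differing. The 10 members were below 0, and the 5 other zinc finger peaks above 0, under each of the scalings run, but the latter by as little as 0.06 (Zbtb16) with DESeq2 size factors. The effective sizes used here were 14914095, 12814321 and 16084217 in young and 12534186, 6158014 and 8736248 in aged libraries. They carry the authors' scaling and are not sequencing depths, and the part of depth in the differences was not tested.

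**Figure D4:**
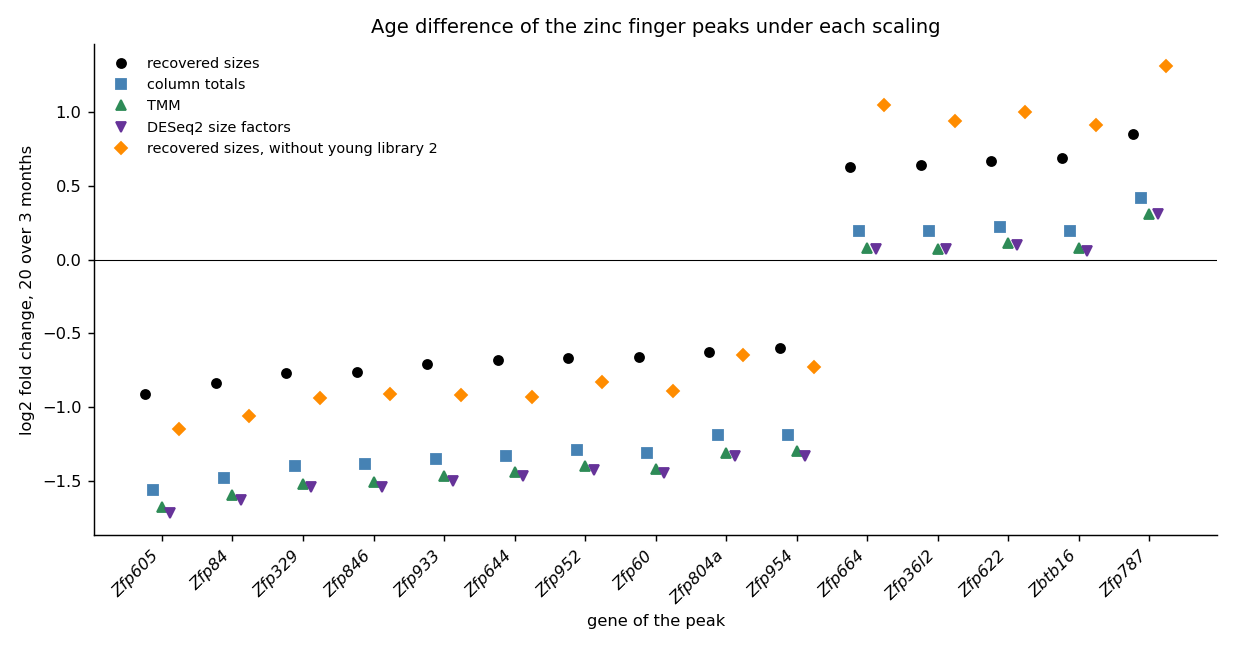
Log2 fold change (20 over 3 months, y axis) of each zinc finger peak (x axis) under 4 ways of scaling the libraries, and with young library 2 left out. The 10 member peaks lie below 0 in each, between -1.72 and -0.60, and the 5 other zinc finger peaks above 0, between 0.06 and 1.31.

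The other zinc finger peaks differed from the members in more than direction. Zfp622, whose yeast relative Rei1 acts in assembly of the large ribosomal subunit, had 89.5, 137.0 and 65.2 CPM in young and 157.0, 151.0 and 157.0 CPM in aged libraries (log2 fold change 0.67, SE 0.37). Zfp36l2, an RNA-binding protein with CCCH fingers that match no C2H2 pattern, had 22.0, 30.7 and 14.0 CPM in young and 30.9, 37.0 and 35.8 CPM in aged libraries (log2 fold change 0.64, SE 0.33). At both, the aged libraries lay above the young ones. The ages overlapped at Zfp664 (log2 fold change 0.63), Zfp787 (0.85) and the intronic Zbtb16 peak (0.69), where young library 2 reached the aged values. The KRAB pattern was absent from Zfp622, Zfp36l2 and Zfp787, and the proteins of Zfp664 and Zbtb16 were not read, because no coding transcript model covered the peak centre.

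Member peaks and the other zinc finger peaks differed in base composition. The members had a median GC content of 39.2% (36.5% to 49.0%) and the other zinc finger peaks 71.0% (59.5% to 76.2%). The other lower peaks had a median of 45.5% (34.0% to 68.1%) and the other higher peaks 73.6% (34.0% to 90.5%), so these overlapped each other and the members. No member peak reached the lowest of the other zinc finger peaks, Zbtb16 at 59.5%. Soft-masked repeats covered a median of 8.25% of the member peaks, with 61.5% at Zfp933 and 0% at Zfp605, Zfp952 and Zfp954. The medians of GC content thus moved with the direction of the age difference, and its part in that difference was not tested.

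**Figure D5:**
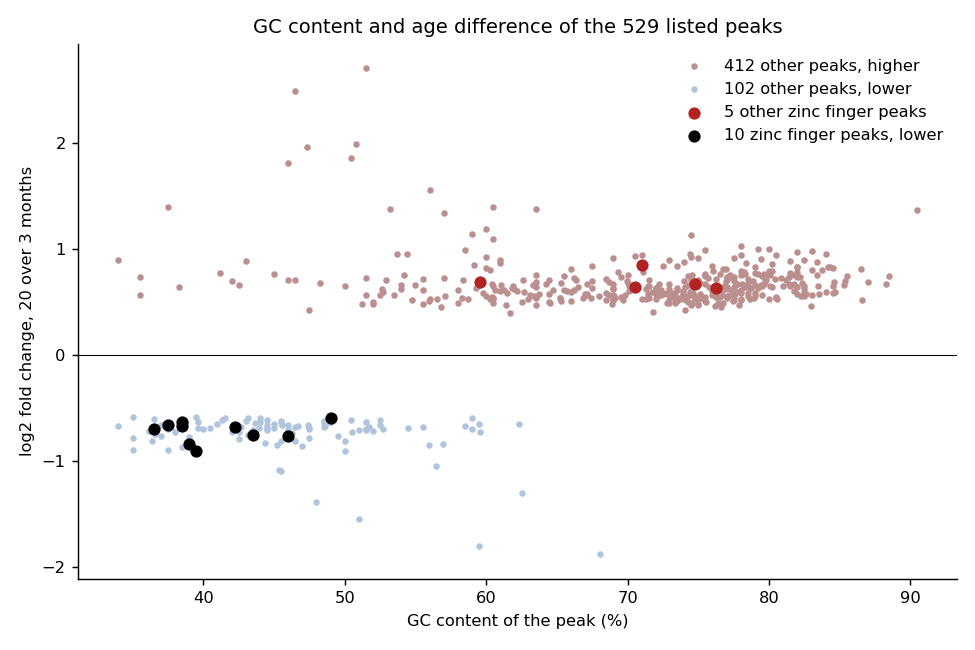
GC content of each of the 529 listed peaks (x axis, %) against its log2 fold change, 20 over 3 months (y axis), with the 10 member peaks in black and the 5 other zinc finger peaks in red. The members lie between 36.5% and 49.0% GC and the other zinc finger peaks between 59.5% and 76.2%.

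Zinc finger genes resemble each other, so each peak was searched for in the genome. Every alignment other than a full-length identical one was counted as a match. Matches can thus lie in other fingers of the same gene or overlap each other. No second match was found for Zfp329, Zfp644, Zfp804a, Zfp84 and Zfp954. The best second match had 76.9% identity over 117 bases for Zfp605, 76.0% over 196 bases for Zfp60, 77.0% over 187 bases for Zfp952 and 83.2% over 197 bases for Zfp846. The Zfp933 peak had 2782 further matches on the chromosomes, the best with 88.1% identity over 201 bases, so its reads are the least certain of the set, even with uniquely mapped reads alone. Its log2 fold change, -0.71, lay near the middle of the 10. The members sat on 6 chromosomes, with 4 of the 10 (Zfp954, Zfp329, Zfp60 and Zfp84) on chromosome 7 and 2 (Zfp605 and Zfp644) on chromosome 5.

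Among 23 genes for the proteins through which KRAB proteins act, 3 had a listed peak, and none was called by the quasi-likelihood test. Setdb1, the histone methyltransferase that Trim28 recruits, had 29.6, 26.5 and 29.3 CPM in young and 18.1, 17.5 and 16.6 CPM in aged libraries (log2 fold change -0.71, SE 0.29). Atf7ip, the partner that stabilises Setdb1, had 57.3, 40.1 and 60.8 CPM in young and 30.9, 38.3 and 33.4 CPM in aged libraries (log2 fold change -0.63, SE 0.32). At both, every aged library was below every young one, and young library 2 was the lowest young one. Ehmt2, which encodes the methyltransferase G9a, went the other way, with 36.5, 91.2 and 36.4 CPM in young and 82.1, 82.8 and 102.0 CPM in aged libraries (log2 fold change 0.70, SE 0.40), where young library 2 lay among the aged ones. Its peak spans the 5'UTR and start codon and has 81.2% GC, while those of Setdb1 and Atf7ip lie in exons with 51.5% and 48.5% GC. Of 116 other C2H2 transcription factor genes, only Hivep2 had a listed peak, in the 5'UTR with 79.5% GC, and its log2 fold change was 0.65.

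The pattern of the member peaks was shared with genes of other families. By Euclidean distance over 6 libraries between log2 CPM profiles centred on each peak's mean, the 5 peaks nearest to the mean member profile were in Arid4b (distance 0.17), Mysm1 (0.18), Lrrn3 (0.18), N4bp1 (0.19) and Pcdh20 (0.22). Arid4b encodes a subunit of the Sin3 histone deacetylase complex and Mysm1 a histone H2A deubiquitinase. These peaks lay in exons, had GC contents of 36.4% to 48.6% and log2 fold changes of -0.81 to -0.67. Among the members themselves, the distance to that mean, which includes them, ranged from 0.15 (Zfp952) to 0.71 (Zfp605).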

How the data were processed

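The members and lists were chosen with earlier results of these data known. The deposited table holds counts of IP reads per peak and library, not normalised by the authors, and only peaks the authors called differential with edgeR's likelihood ratio test. Their methods name removal of unwanted variation (RUV) as an added option, and whether it was applied to this table is not given in the sources used here. No fit made here used it. Per the labels' processing notes and the methods, reads were trimmed (Trimmomatic 0.36), filtered (Bowtie2 2.2.7), aligned to mm10 (STAR 2.5.3a) and kept if uniquely mapped (SAMtools 1.3), peaks were called over input (MACS2 2.2.1), and their reads were counted (Subread 1.6.4) and annotated (bedtools 2.25.0). The deposited columns of the authors' own fold changes, test statistics and p-values were not used.

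Library sizes were not in the table. They were recovered from the deposited log2 average abundance, which the authors' edgeR fit gives, by inverting its formula (median misfit 2.4e-10 log2 units), so they carry the authors' scaling. Between 322474 and 701150 reads of a library fell in listed peaks. The 862 rows were merged to 529 peaks, of which 42 lie in more than 1 gene and no member peak does. The main fit was edgeR 4.0.16's two-sided quasi-likelihood test (R 4.3.3), aged against young, without covariates or a filter on low counts, Benjamini-Hochberg adjusted at 0.05, on a list selected on the same libraries. It was tested on simulated data with the same dispersion for every peak and no outlying library, a setting unlike this selected list. p-values measure the spread between 3 individual mice per age. Alternatives were column totals, TMM, DESeq2 1.42.0 size factors and Wald test, sizes by plain least squares, the likelihood ratio test, a mean of at least 100 reads, the replicate number as a block, each library left out, starts counted from 1, and a wider finger pattern.

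Sequences come from GRCm38, reading deposited starts as counted from 0, with coordinates printed from 1, and gene models from GENCODE M21 (the longest coding sequence over the peak centre). A finger was counted under a peak if its codons were covered to 50% or more. The KRAB pattern was DVxVxF, 4 residues, WxxL, 6 residues, LY. Similar stretches were searched for with BLAST 2.17.0 (word size 16, e-value limit 1e-10). Named genes were all members, all other Zfp, Zbtb, Zscan and Zkscan genes, the listed genes of 2 lists (KRAB partners and other C2H2 factors), and the 5 nearest profiles. Python 3.11.15, pandas 2.3.3, SciPy 1.17.1, pysam 0.24.0 and matplotlib 3.10.9 were used.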

Additional observations from a re-analysis of the deposited data

How the results depend on the processing

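The log2 fold changes of the 15 zinc finger peaks kept their sign under each alternative run. The members' median was -1.34 with column totals, -1.46 with TMM, -1.49 with DESeq2 size factors and -0.83 with sizes by plain least squares, and -0.91 to -0.56 with 1 library left out. The members called lower numbered 7 with TMM and 1 with DESeq2 size factors, and 0 to 10 with 1 library left out, the 10 being without young library 2. Lower calls among all listed peaks numbered 3 with column totals, 87 with TMM, 45 with DESeq2 size factors, 1 with the likelihood ratio test, 1 with the Wald test, and 0 to 103 with 1 library left out. Higher calls numbered 11 with either of those 2 tests and 4 to 410 with 1 library left out (14 without young library 3, 410 without young library 2). Member peaks with every aged library below every young one numbered 8 with TMM, 8 with plain least squares and 6 with DESeq2 size factors. The same counts over all listed peaks were 97, 94 and 94. With 1 library left out, such member peaks numbered 4 to 10 (7 without aged library 3), and such listed peaks 81 to 106. Lower peaks with an unadjusted p under 0.05 numbered 112, with 10 members, with each of column totals, TMM and DESeq2 size factors, 101 with 9 members with plain least squares, 13 with 0 members under the replicate block, and 8 (0 members, without aged library 1) to 103 (10 members, without young library 2) with 1 library left out. Same-numbered young and aged libraries did not deviate together (r = -0.20, -0.04 and -0.03 over peaks), and with the replicate number as a block there was 1 lower call, no member among it, and the members' median was -0.68. The cause of these differences was not tested. Counting starts from 1 and the wider finger pattern changed no count by over 1.5 times. The 3 libraries per age, the unanalysed input and the low count of aged library 2 (322474 reads in listed peaks) limit the precision.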
